A study of Mus musculus with 3 samples.

Results

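The 33 genes described here encode regulators and enzymes of sterol and fatty acid synthesis that are known targets or partners of the sterol regulatory element-binding proteins (SREBPs). They were listed by gene symbol, 33 of the 32285 genes in the deposited feature table, and all 33 were found there. By role they are 4 regulators (*Srebf1*, *Srebf2*, *Insig1*, *Insig2*), 18 sterol enzymes, the sterol carrier *Stard4*, 9 fatty acid enzymes and *Lpin1*, a phosphatidate phosphatase of glycerolipid synthesis. The sterol enzymes comprise 7 of the mevalonate and isoprenoid steps, 3 that lead from farnesyl diphosphate through squalene to lanosterol, and 8 that turn lanosterol into cholesterol. The fatty acid enzymes comprise 4 that make palmitate or supply its precursors and 5 that elongate or desaturate the chain. The list was drawn up with earlier results from these libraries known, so the levels below are given as a description and none is offered as a test.

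Mononuclear cells of the costal diaphragm, the main muscle of breathing, were profiled by single-cell RNA-Seq in 3 groups of male mice. WT CD mice were C57Bl/6J and stayed on control diet. WT HFD mice were C57Bl/6J and received a high-fat diet with 45% of its calories from lipid. KO HFD mice carried a whole-body deletion of *Thbs1*, the gene of the secreted matrix protein thrombospondin-1 (strain B6.129S2-Thbs1tm1Hyn/J, which the supplier keeps on C57BL/6J), and received the same high-fat diet. Diets diverged at 2 months of age and lasted 6 months in all groups. There was no KO group on control diet among the samples analysed here, so diet was compared in WT mice and genotype on the HFD. Tissue was digested with collagenase II, dead cells stained by DAPI were gated out, and cells of 2 mice were pooled in each library. Each group was therefore 1 library. Cells of a library are not replicates, so no p-value was computed, and differences between the mice of a group and differences between groups cannot be told apart.

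The WT CD library held 4132 cells and 34312860 unique molecular identifiers (UMIs), the WT HFD library 3774 cells and 31967976 UMIs, and the KO HFD library 4369 cells and 36478779 UMIs. Median depth was 7632.5, 8041.5 and 7554 UMIs per cell. WT CD shared 7 cell barcodes with WT HFD and 7 with KO HFD, and the 2 HFD libraries shared 2. A UMI marks 1 captured mRNA molecule read at its 3′ end, so levels were not scaled by gene length. A level is the number of UMIs of a gene per 1000000 UMIs of its cell class and library (CPM). Ratios are log2 ratios of levels. Exact 95% intervals (Poisson for a level, conditional binomial for a ratio) cover counting error only. A gene was called lower or higher when its level differed by 1.5-fold or more, and it was counted as tested with at least 50 UMIs in both libraries together.

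SREBPs are made as precursors in the membrane of the endoplasmic reticulum, bound to the escort protein SCAP. When sterols are plentiful, the INSIG proteins hold SCAP in that membrane. When sterols run low, the complex moves to the Golgi, where proteases release the transcription factor domain. *Srebf2* encodes SREBP-2, which acts mainly on sterol genes, and *Srebf1* encodes SREBP-1, which acts mainly on fatty acid genes. *Insig1* is itself an SREBP target, whereas *Insig2* is largely independent of SREBPs. Fibro-adipogenic progenitors (FAPs) are stromal cells found between muscle fibres, marked by *Pdgfra*, and can turn into fat cells or fibroblasts.

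Promoter sequence is shown for 4 members because SREBPs bind a short element close to the start of their target genes, usually beside sites for NF-Y and Sp1. RefSeq windows of 250 bases before to 50 bases after the start (GRCm38.p6) matched 26 of the 33 members. Those without a window were *Fdps*, *Fdft1*, *Sqle*, *Stard4*, *Scd1*, *Scd2* and *Fads1*. Capitals below mark exact matches on either strand to 4 sets of letters, namely the sterol regulatory element core TCACNCCAC, the E-box CACGTG, the CCAAT box and the GC box GGGCGG. No matches of these sets overlapped in the 4 sequences. *Hmgcs1* (chr13:119690151-119690350, plus strand) was the member whose window held the sterol element core, *Insig1* (chr5:28071163-28071362, plus strand) and *Lss* (chr10:76531388-76531587, plus strand) were lower in FAP-like cells of WT HFD than of WT CD, and *Ebp* (chrX:8193513-8193712, minus strand) differed little. Each run has 200 bases and ends before the annotated gene start.
Hmgcs1: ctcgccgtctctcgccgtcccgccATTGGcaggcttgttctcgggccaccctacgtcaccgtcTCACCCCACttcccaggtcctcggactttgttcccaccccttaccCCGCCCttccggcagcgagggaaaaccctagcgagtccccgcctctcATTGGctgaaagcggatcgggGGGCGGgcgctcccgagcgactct
Insig1: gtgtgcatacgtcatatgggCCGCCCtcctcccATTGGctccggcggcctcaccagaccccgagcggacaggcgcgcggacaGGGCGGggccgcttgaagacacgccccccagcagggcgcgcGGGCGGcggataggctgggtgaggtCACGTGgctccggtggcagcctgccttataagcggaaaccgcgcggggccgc
Lss: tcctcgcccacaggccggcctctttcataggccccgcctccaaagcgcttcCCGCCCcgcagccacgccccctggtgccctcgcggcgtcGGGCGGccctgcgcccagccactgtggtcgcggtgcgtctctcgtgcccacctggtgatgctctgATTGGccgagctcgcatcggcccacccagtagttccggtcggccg
Ebp: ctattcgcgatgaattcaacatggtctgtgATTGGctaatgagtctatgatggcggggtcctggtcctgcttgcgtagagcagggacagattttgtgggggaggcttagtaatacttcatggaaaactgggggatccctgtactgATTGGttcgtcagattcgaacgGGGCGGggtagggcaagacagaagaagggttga

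The sterol element core stood in 1 of the 26 member windows, 137 bases before the start of *Hmgcs1*, and in 1.24% of all 32851 windows, or 1.34% of the genes tested in FAP-like cells. The E-box stood in 4 member windows (*Insig1*, *Hsd17b7*, *Sc5d*, *Dhcr7*) and in 7.15% of all windows, or 11.8% of the genes tested in FAP-like cells. A CCAAT box was found in 21 of 26 member windows and in 37.4% of all windows, or 43.0% of the genes tested in FAP-like cells. A GC box was likewise found in 21 of 26, and in 35.7% of all windows, but it was in 70.0% of the genes tested in FAP-like cells. These matches describe letters in a window of fixed length and are not evidence of binding.

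Cells were assigned to classes by markers, and 89.9% of the 12275 cells received one. FAP-like cells numbered 2246 in WT CD, 2002 in WT HFD and 2439 in KO HFD, with median depths of 8507, 9185 and 8449 UMIs. *Pdgfra* was detected in 89.6, 91.1 and 91.5% of them and *Dcn* in all, and no member of the sterol and lipid list served as a marker. By clustering, 79.0, 84.2 and 81.1% of them fell in FAP-like clusters. The deleted gene came first as a check of the labels. *Thbs1* stood at 190.2 CPM in WT CD, 232 CPM in WT HFD and 226 CPM in KO HFD in FAP-like cells, and since the chemistry reads the 3′ end, this count does not show whether the deletion is present.

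In FAP-like cells the sterol and lipid genes were lower in WT HFD than in WT CD. All 33 members were tested, 14 were lower past 1.5-fold and 0 were higher, against 2.9% of all 12187 tested genes called lower and 2.39% called higher. The ratio was below 0 for 30 members and for 33.8% of all tested genes, and the median member stood at -0.51 against 0.078 for all tested genes. Of the 18 sterol enzymes all were below 0 and 9 were called lower, and of the 9 fatty acid enzymes 8 were below 0 and 3 were called lower. Summed over the 18 sterol enzymes the level was 495 CPM (95% interval 486 to 505) in WT CD, 344 CPM (95% interval 336 to 353) in WT HFD and 348 CPM (341 to 356) in KO HFD, a ratio of -0.52 (95% interval -0.57 to -0.48) for WT HFD against WT CD. The 9 fatty acid enzymes summed to 437, 316 and 326 CPM in the same order, a ratio of -0.46 (95% interval -0.51 to -0.42). Counting intervals of the ratio lay wholly below 0 for 27 members, against 8.85% of all tested genes, and wholly above 0 for *Insig2*, against 25.1%. For 20 members the intervals of the level in both HFD libraries lay below that of WT CD, against 2.41% of all tested genes. The members nearest the threshold were *Cyp51* at -0.60, just inside, and *Tm7sf2* at -0.56, just outside.

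**Figure D1:**
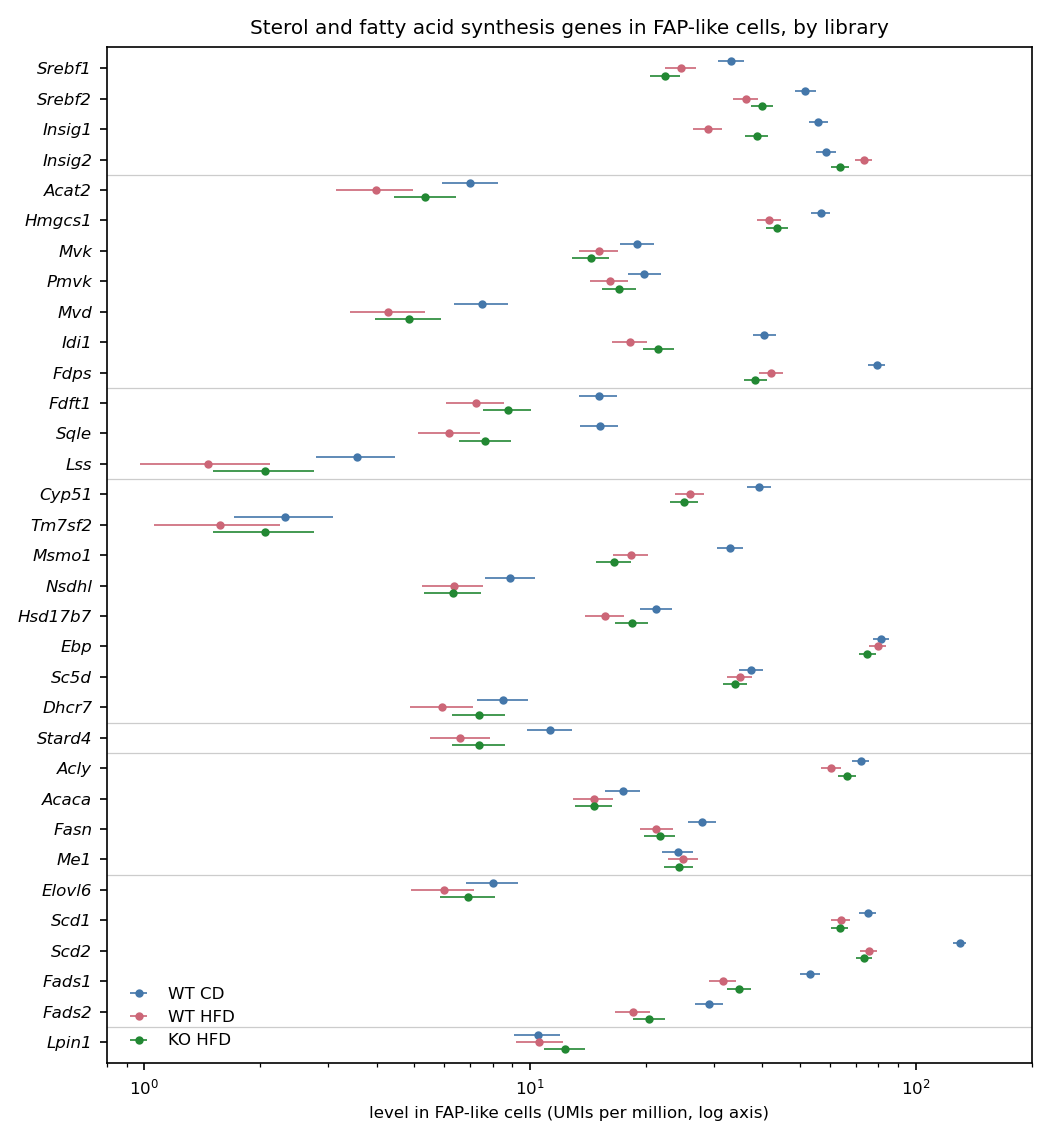
Level of each of the 33 members in FAP-like cells of the 3 libraries (CPM, log axis), grouped by role, with exact 95% Poisson intervals that cover counting error only. For 20 members the intervals of both HFD libraries lie below that of WT CD, against 2.41% of all tested genes, and *Insig2* is highest in WT HFD.

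The regulators did not move together. *Insig1* (ENSMUSG00000045294, chromosome 5 from 28071363 to 28078662 on GRCm38) stood at 55.9 CPM (95% interval 52.7 to 59.3) in WT CD, 28.9 CPM (95% interval 26.5 to 31.4) in WT HFD and 38.7 CPM (36.1 to 41.4) in KO HFD. Its ratio was -0.95 (95% interval -1.10 to -0.81) for WT HFD against WT CD, and no interval of the 3 libraries overlapped another. *Insig2* (ENSMUSG00000003721, chromosome 1 from 121304353 to 121332589), its paralog, went the other way, at 58.5 CPM in WT CD, 73.2 CPM in WT HFD and 63.7 CPM in KO HFD, with a ratio of 0.32 (95% interval 0.21 to 0.44). *Srebf2* (ENSMUSG00000022463, chromosome 15 from 82147181 to 82205379) stood at 51.7 CPM in WT CD, 36.2 CPM in WT HFD and 39.9 CPM in KO HFD and *Srebf1* (ENSMUSG00000020538, chromosome 11 from 60199089 to 60222581) at 33.2, 24.6 and 22.4 CPM in the same order. Both SREBP genes were below WT CD in the HFD libraries, with ratios of -0.51 and -0.43 that did not reach 1.5-fold. With TMM scaling, which centres the ratios of all genes near 0, *Srebf2* passed it, at -0.59, as it did with the FAP-like subsets weighted alike, at -0.75.

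The mevalonate and isoprenoid enzymes build the isoprenoid units of sterols and join them. All 7 were below 0 and 4 were called lower. *Idi1* (ENSMUSG00000058258, chromosome 13 from 8885501 to 8892451), which isomerises isopentenyl diphosphate, stood at 40.5 CPM in WT CD, 18.1 CPM in WT HFD and 21.5 CPM in KO HFD, a ratio of -1.16 (95% interval -1.35 to -0.98). *Fdps* (ENSMUSG00000059743, chromosome 3 from 89093588 to 89101959), which makes farnesyl diphosphate, was the most abundant of the group in WT CD, at 79.2, 42.1 and 38.3 CPM in the same order of libraries, a ratio of -0.91 (95% interval -1.03 to -0.79). Both HFD libraries thus lay well below WT CD for these genes. *Acat2* (ENSMUSG00000023832, chromosome 17 from 12942890 to 12960747), a cytosolic thiolase that makes acetoacetyl-CoA, stood at 7.01, 3.98 and 5.36 CPM with a ratio of -0.82 (95% interval -1.24 to -0.40). *Mvd* (ENSMUSG00000006517, chromosome 8 from 122433601 to 122443422), the decarboxylase of the route, stood at 7.50, 4.29 and 4.85 CPM with a ratio of -0.80 (95% interval -1.21 to -0.41). These 2 rested on fewer molecules, 142, 76 and 117 UMIs for *Acat2* and 152, 82 and 106 for *Mvd*. The other 3 enzymes of the group, the HMG-CoA synthase *Hmgcs1* and the kinases *Mvk* and *Pmvk*, had ratios of -0.45, -0.33 and -0.30, none past 1.5-fold, although *Hmgcs1* passed it with cells thinned to 3000 UMIs (-0.64) and *Mvk* with the FAP-like subsets weighted alike (-0.59).

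The 3 enzymes from farnesyl diphosphate to lanosterol were all called lower and had the lowest median of any group, -1.28. *Sqle* (ENSMUSG00000022351, chromosome 15 from 59315077 to 59331192), the squalene epoxidase, stood at 15.2 CPM in WT CD, 6.18 CPM in WT HFD and 7.65 CPM in KO HFD, a ratio of -1.29 (95% interval -1.61 to -0.98). *Fdft1* (ENSMUSG00000021273, chromosome 14 from 63145150 to 63179578), squalene synthase, stood at 15.1, 7.23 and 8.75 CPM, a ratio of -1.06 (95% interval -1.36 to -0.76). *Lss* (ENSMUSG00000033105, chromosome 10 from 76531588 to 76557138), which closes the ring to lanosterol, was among the least abundant members at 3.55, 1.47 and 2.06 CPM, a ratio of -1.28 (95% interval -1.96 to -0.63). *Lss* rested on 72, 28 and 45 UMIs, and with the FAP-like subsets weighted alike its ratio was -0.31, no longer past 1.5-fold.

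Of the 8 enzymes that turn lanosterol into cholesterol, all were below 0 and 2 were called lower. *Msmo1* (ENSMUSG00000031604, chromosome 8 from 64718139 to 64733792), a sterol C4-methyl oxidase, stood at 33.01 CPM in WT CD, 18.2 CPM in WT HFD and 16.5 CPM in KO HFD, a ratio of -0.86 (95% interval -1.05 to -0.67). *Cyp51* (ENSMUSG00000001467, chromosome 5 from 4081145 to 4104746), the lanosterol demethylase, stood at 39.2, 25.9 and 25.1 CPM, a ratio of -0.60 (95% interval -0.76 to -0.43). With classes taken from clustering, *Cyp51* was at -0.52 and no longer past 1.5-fold. The sterol reductase *Dhcr7* and the C4-demethylation enzymes *Nsdhl* and *Hsd17b7* had ratios of -0.52, -0.49 and -0.45. At the other end, *Ebp* (ENSMUSG00000031168, chromosome X from 8185329 to 8193512), the sterol isomerase, was abundant and nearly level at 81.3, 79.6 and 74.9 CPM, a ratio of -0.03 (95% interval -0.13 to 0.072), and *Sc5d*, a sterol desaturase, stood at -0.10. Intervals for *Ebp*, *Sc5d* and *Tm7sf2* included 0. *Stard4* (ENSMUSG00000024378, chromosome 18 from 33199355 to 33213862), a soluble carrier of cholesterol between membranes, was called lower, at 11.3, 6.60 and 7.37 CPM and a ratio of -0.77 (95% interval -1.10 to -0.45).

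Among the fatty acid enzymes the lower calls were desaturases. *Scd2* (ENSMUSG00000025203, chromosome 19 from 44293674 to 44306864), a stearoyl-CoA desaturase, had the highest level of the 33 members in WT CD and stood at 129.8 CPM (95% interval 125 to 135) in WT CD, 75.5 CPM (95% interval 71.7 to 79.5) in WT HFD and 73.4 CPM (69.8 to 77.0) in KO HFD. Its ratio was -0.78 (95% interval -0.88 to -0.69), and the HFD libraries differed little from each other. *Fads1* (ENSMUSG00000010663, chromosome 19 from 10182888 to 10196877), a front-end desaturase of polyunsaturated fatty acids, stood at 53.2, 31.6 and 34.9 CPM, a ratio of -0.75 (95% interval -0.90 to -0.60). *Fads2* (ENSMUSG00000024665, chromosome 19 from 10062765 to 10101746), which acts earlier in the same route, stood at 29.1, 18.4 and 20.3 CPM, a ratio of -0.66 (95% interval -0.85 to -0.47). The close paralog *Scd1* (ENSMUSG00000037071, chromosome 19 from 44394455 to 44407879) differed less between diets than *Scd2*, at 75.2, 63.8 and 63.4 CPM and a ratio of -0.24 (95% interval -0.35 to -0.13). None of the 4 enzymes that make palmitate or supply its precursors was called lower. *Acly* (ENSMUSG00000020917, chromosome 11 from 100476353 to 100528000), which makes cytosolic acetyl-CoA from citrate, stood at 72.0, 60.2 and 66.3 CPM, a ratio of -0.26 (95% interval -0.37 to -0.14). *Fasn* (fatty acid synthase), *Acaca* (acetyl-CoA carboxylase) and the elongase *Elovl6* had ratios of -0.39, -0.25 and -0.42. *Me1*, which supplies NADPH, and *Lpin1* stood at 0.047 and 0.016, with intervals that included 0.

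**Figure D2:**
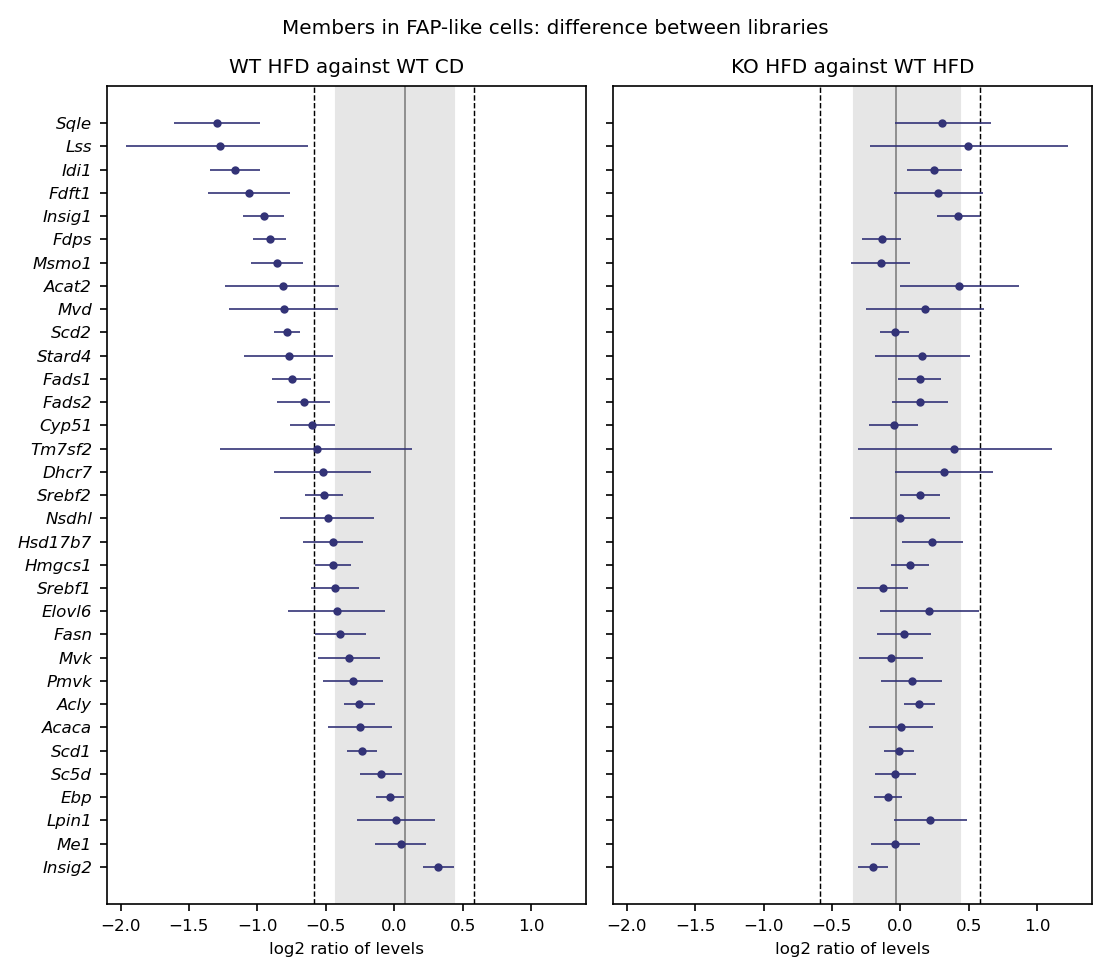
Log2 ratio of levels in FAP-like cells for each member, WT HFD against WT CD (left) and KO HFD against WT HFD (right), with exact 95% intervals that cover counting error only. Dashed lines mark 1.5-fold, the grey line is the median of all tested genes and the grey band holds the middle 90% of them. On the left 14 members lie past the lower dashed line, and on the right none lies past either.

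On the HFD, KO and WT FAP-like cells differed little in these genes. None of the 33 members was past 1.5-fold in KO HFD against WT HFD, where 1.51% of all 12280 tested genes were called lower and 2.95% higher. This comparison shares the WT HFD library with the one above. Ratios ran from -0.20 for *Insig2* to 0.49 for *Lss*, with a median of 0.14 against -0.034 for all tested genes. The ratio was below 0 for 12 members and for 57.8% of all tested genes, so most members stood slightly higher in KO HFD. The summed sterol enzymes had a ratio of 0.017 (95% interval -0.031 to 0.065) and the fatty acid enzymes 0.042 (95% interval -0.0073 to 0.092). Intervals lay above 0 for 4 members, against 10.0% of all tested genes, a share near the background. These were *Insig1* at 0.42 (95% interval 0.27 to 0.58), *Idi1* at 0.25 (95% interval 0.045 to 0.45), *Hsd17b7* at 0.23 (95% interval 0.015 to 0.46) and *Acly* at 0.14 (95% interval 0.026 to 0.25). *Insig2* alone had an interval below 0, at -0.20 (95% interval -0.31 to -0.092), against 16.2% of all tested genes. With the FAP-like subsets weighted alike, *Acat2* and *Stard4* passed 1.5-fold, at 0.60 and 0.64. That setting gives a subset with 3.55% of the FAP-like cells of WT HFD the weight of the larger ones. KO HFD was below WT CD in 30 of the 33 members and in 38.9% of the 12381 genes with at least 50 UMIs in those libraries together, a difference that combines diet and genotype.

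Summed sterol enzymes were lower in WT HFD than in WT CD in each FAP-like subset. In the *Cxcl14* *Mme* subset (810, 685 and 853 cells in WT CD, WT HFD and KO HFD) the sterol enzymes summed to 524, 356 and 363 CPM, a ratio of -0.56 (95% interval -0.64 to -0.48) for WT HFD against WT CD. In the *Dpp4* *Sema3c* subset (493, 609 and 578 cells) they summed to 524, 340.3 and 348 CPM, a ratio of -0.62 (95% interval -0.70 to -0.54). FAP-like cells in no subset (861, 637 and 905 cells) stood at 450.4, 338 and 327 CPM, a ratio of -0.42 (95% interval -0.50 to -0.34). The share of *Dpp4* *Sema3c* cells was 22.0% of FAP-like cells in WT CD, 30.4% in WT HFD and 23.7% in KO HFD. The small *Fmod* *Sfrp2* *Tnmd* subset (82, 71 and 103 cells) stood at 474 CPM (95% interval 423 to 529.8) in WT CD, 337 CPM (95% interval 291 to 387) in WT HFD and 435 CPM (390 to 484) in KO HFD, a ratio of -0.49 (95% interval -0.76 to -0.23). Its KO HFD interval overlapped that of WT CD, and its ratio of KO HFD against WT HFD was 0.37 (95% interval 0.11 to 0.63). *Insig1* in that subset stood at 45.9, 44.5 and 65.3 CPM, with little difference between the WT libraries, whereas in the *Cxcl14* *Mme* subset it stood at 66.7, 31.2 and 46.8 CPM. The *Insig1* ratio between WT libraries was -0.045 (95% interval -0.86 to 0.76) in the small subset and -1.10 (95% interval -1.35 to -0.85) in the *Cxcl14* *Mme* subset, and the difference between these subsets was not tested. In the small subset *Scd1* went the other way between the HFD libraries, at 71.9, 75.2 and 39.7 CPM in WT CD, WT HFD and KO HFD, and was lower in KO HFD than in WT HFD by a ratio of -0.92 (95% interval -1.64 to -0.23). *Scd2* gave ratios of -0.67, -0.90, -0.79 and -0.79 in the *Cxcl14*, *Dpp4*, *Fmod* and remaining cells.

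Per cell, the sterol enzymes were sparse. With every cell thinned to 3000 UMIs, which left out 50, 25 and 41 shallower cells, FAP-like cells held a mean of 1.49 sterol enzyme UMIs in WT CD (SD 1.92 over cells), 1.03 in WT HFD (SD 1.31) and 1.03 in KO HFD (SD 1.35). The difference lay at both ends of the distribution. Cells with 0 such UMIs made up 33.9% in WT CD, 42.2% in WT HFD and 42.5% in KO HFD. Cells with 5 or more made up 6.42, 2.18 and 2.21%, and the highest cells held 20, 12 and 14. Before thinning, 90.8, 87.2 and 87.2% of FAP-like cells held at least 1 such UMI at median depths of 8507, 9185 and 8449. No class here is known to lack these enzymes. The lowest shares among the 5 classes examined in this way were those of blood endothelial-like cells, 44.3, 53.0 and 49.2%, at median depths of 3261, 3533 and 3309.5 UMIs.

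**Figure D3:**
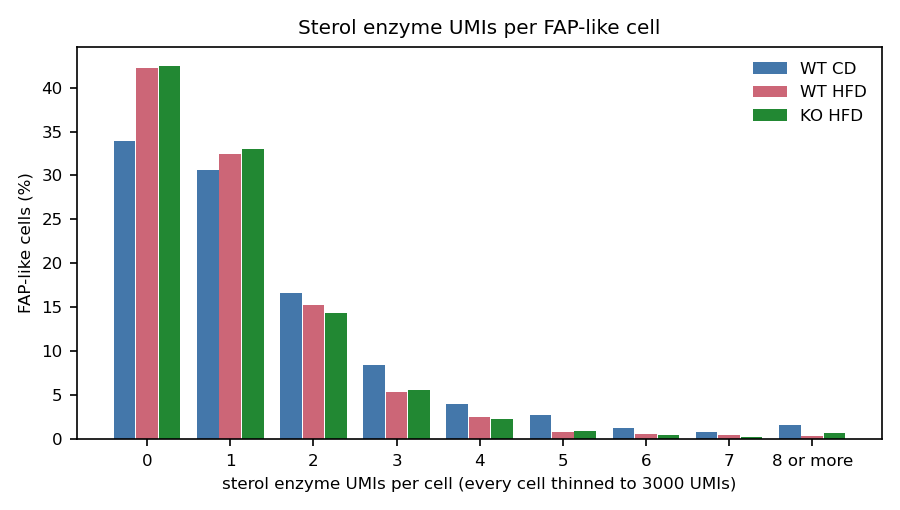
Share of FAP-like cells (percent, vertical axis) by the number of UMIs they hold from the 18 sterol enzymes together (horizontal axis), every cell thinned to 3000 UMIs, in each library. Cells with 0 UMIs are 33.9% of WT CD and 42.2 and 42.5% of the HFD libraries, and the bars from 2 UMIs upward are tallest in WT CD.

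Genes around the pathway were examined from lists that do not overlap the 33 members. Among genes of SREBP escort, cleavage and turnover, *Scap*, *Mbtps1*, *Mbtps2*, *Erlin1*, *Erlin2* and *Rnf139* were not past 1.5-fold in either comparison in FAP-like cells. *Scap*, which encodes the SREBP escort, stood at 14.7, 14.6 and 14.7 CPM. The SREBP-cleaving proteases *Mbtps1* and *Mbtps2* had ratios of 0.035 (95% interval -0.088 to 0.16) and 0.15 (95% interval -0.16 to 0.47) for WT HFD against WT CD. Among further lipid synthesis genes, *Mlxipl*, the gene of a carbohydrate-responsive transcription factor, was called higher in KO HFD than in WT HFD, at 0.88 (95% interval 0.059 to 1.75), resting on 19 and 40 UMIs. Of 16 genes of sterol efflux, storage and uptake, 1 was called lower between the WT libraries, against 2.9% of all tested genes, and 0 in the genotype comparison, against 1.51% lower and 2.95% higher. The lower gene was *Scarb1*, a receptor for high-density lipoprotein, at 2.27, 1.47 and 1.47 CPM and -0.63 (95% interval -1.36 to 0.078), an interval that included 0. The efflux, storage and uptake list had a median of -0.021 between the WT libraries, beside -0.51 for the 33 members and 0.078 for all tested genes.

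Markers of other cells and of handling also differed between libraries in FAP-like cells. The 7 adipocyte markers summed to 5.18, 21.00 and 10.2 CPM, nearly all of it *Fabp4* at 4.79, 20.5 and 9.89 CPM, while *Adipoq* and *Plin1* had 2 UMIs in each library and *Cidec* had 0. The 6 hepatocyte markers summed to 0.592, 1.26 and 1.47 CPM, led by *Apoa1* at 0.345, 0.786 and 1.19 CPM, with *Alb*, *Serpina1a* and *Fgb* at 0. *Fabp4* and the adipocyte sum were highest in WT HFD. The 7 myofiber markers summed to 30.3, 25.2 and 27.5 CPM, led by *Acta1* at 13.5, 8.38 and 9.30 CPM, and none of the 7 was at 0. The 4 erythroid markers summed to 2.71, 46.0 and 3.53 CPM, led by *Hbb-bs* at 1.18, 26.4 and 1.92 CPM, with *Alas2* at 1, 0 and 1 UMIs. Erythroid transcripts were highest in WT HFD. The 5 cycling markers summed to 10.5, 23.3 and 22.2 CPM, led by *Top2a* at 2.71, 7.39 and 6.78 CPM, and none was at 0. The 8 dissociation genes summed to 12959, 11634 and 14239 CPM, led by *Fos* at 4005, 3948 and 4562 CPM, and none was at 0. Within that list *Hspa1a*, a heat shock gene, stood at 322, 158 and 224 CPM, lowest in WT HFD. The part of these markers in the sterol result was not tested.

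Across cell classes, sterol and fatty acid enzymes differed in level before any comparison of diet. Summed sterol enzymes were highest in Schwann-like cells, the glia that make myelin, at 1206 CPM (95% interval 1011 to 1429) in WT CD, 678 CPM (95% interval 543 to 836) in WT HFD and 1162 CPM (987 to 1359.6) in KO HFD. FAP-like cells followed in WT CD at 495 CPM, then MuSC-like cells (muscle stem cells) at 458 CPM, T or NK cell-like cells at 381 CPM, lymphatic-like cells at 368 CPM, macrophage-like cells at 333 CPM, mesothelial-like cells at 320 CPM, B cell-like cells at 253 CPM and blood endothelial-like cells at 188 CPM. Neighbours from FAP-like to B cell-like cells in that order had overlapping counting intervals, whereas Schwann-like cells lay above FAP-like cells and blood endothelial-like cells below B cell-like cells without overlap. In summed fatty acid enzymes, Schwann-like cells again led at 1278, 935 and 663 CPM, with FAP-like cells at 437, 316 and 326 CPM and mesothelial-like cells at 392, 345 and 351 CPM. Schwann-like cells were few, 31, 29 and 35, and their sums rested on 134, 87 and 156 sterol enzyme UMIs. Their most abundant member was *Scd2*, at 837, 529.7 and 402 CPM.

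**Figure D4:**
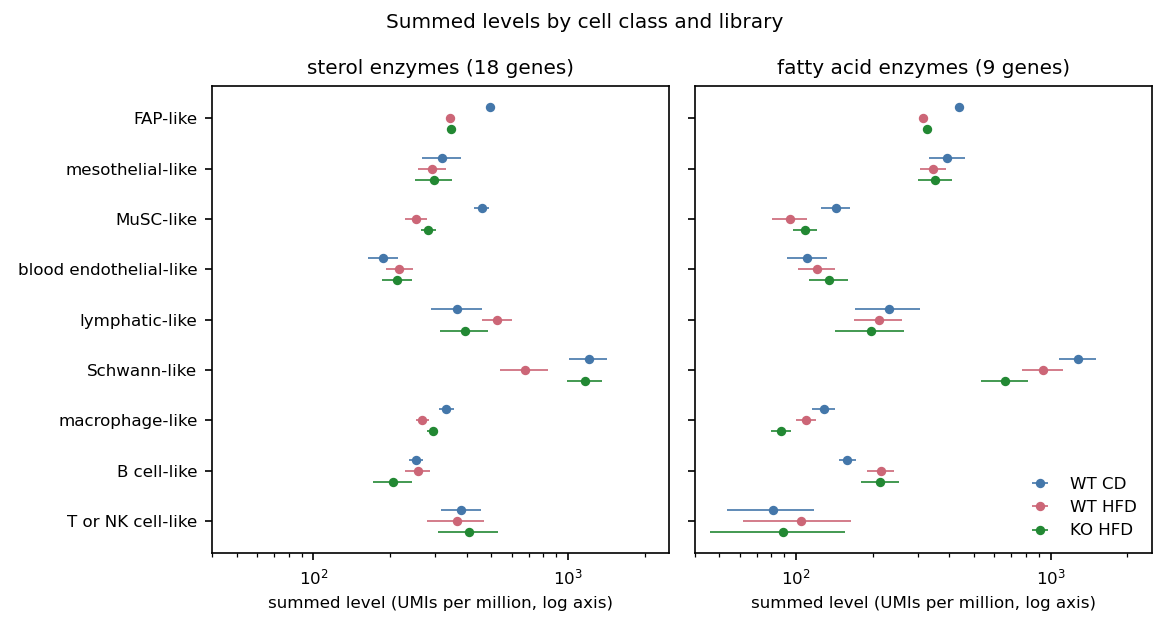
Summed level of the 18 sterol enzymes (left) and the 9 fatty acid enzymes (right) by cell class and library (CPM, log axes), with exact 95% Poisson intervals that cover counting error only. Sterol enzymes are lower in both HFD libraries than in WT CD in FAP-like, MuSC-like and macrophage-like cells, and Schwann-like cells are highest.

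MuSC-like cells (344, 272 and 462 cells) also had lower sterol enzymes in WT HFD than in WT CD. Of 16 members tested, 9 were called lower and 1 higher, against 3.22% of 5594 tested genes lower and 17.0% higher. The other 17 members had too few UMIs. Summed sterol enzymes stood at 458 CPM in WT CD, 253 CPM in WT HFD and 283 CPM in KO HFD, a ratio of -0.86 (95% interval -1.03 to -0.68). *Idi1* stood at 89.1, 27.7 and 41.9 CPM, a ratio of -1.68 (95% interval -2.19 to -1.20). *Cyp51* stood at 60.0, 19.5 and 34.8 CPM, a ratio of -1.62 (95% interval -2.23 to -1.04). Both were lowest in WT HFD, with KO HFD between. *Fdft1*, *Fdps*, *Insig1* and *Msmo1* had ratios of -1.67, -1.30, -0.83 and -0.83, and the fatty acid genes *Fasn*, *Scd1* and *Scd2* had -1.32, -1.01 and -0.93. *Insig2* was again on the other side of 0, at 0.45 (95% interval 0.14 to 0.75), an interval that included the median of all tested genes, 0.21. MuSC-like cells held *Insig2* at 93.1, 127 and 117 CPM, the most of the 9 classes described in each library. The higher call was *Elovl6*, a fatty acid elongase, at 0.59 (95% interval -0.10 to 1.29), an interval that included 0. All tested genes had a median of 0.21 in this class, and with TMM scaling, which moved it to -0.025, 12 members were lower and 0 higher, against 7.87% of genes lower and 7.35% higher.

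In KO HFD against WT HFD, 18 members were tested in MuSC-like cells, 5 were called higher and 1 lower, against 3.0% of 6808 genes higher and 4.69% lower. The higher calls were *Acaca* at 1.14 (95% interval 0.21 to 2.19), *Acly* at 1.07 (95% interval 0.23 to 1.99), *Sqle* at 0.95 (95% interval 0.067 to 1.92), *Cyp51* at 0.84 (95% interval 0.26 to 1.45) and *Idi1* at 0.60 (95% interval 0.10 to 1.11). *Acaca* rested on 12 UMIs in WT HFD and 48 in KO HFD. The lower call was *Scd1* at -0.63 (95% interval -1.49 to 0.24), whose interval included 0. With TMM scaling 7 members were called higher and 0 lower, against 4.05% of genes higher and 3.26% lower. The summed sterol enzymes differed by 0.16 (95% interval -0.0069 to 0.33), or by 0.24 with TMM scaling. Cycling markers summed to 46.0, 221 and 197 CPM and erythroid markers to 0, 15.9 and 323 CPM in MuSC-like cells, and 20.2% of these cells lay near the assignment threshold. The part of these in the result was not tested.

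Macrophage-like cells (226, 410 and 423 cells) had 9 of 23 tested members lower and 2 higher in WT HFD against WT CD, where 4.7% of 7822 genes were lower and 8.54% higher. Sterol enzymes summed to 333 CPM in WT CD, 268 CPM in WT HFD and 294 CPM in KO HFD, a ratio of -0.31 (95% interval -0.44 to -0.19). *Scd2* had the lowest ratio, with 21.03, 6.37 and 6.74 CPM and -1.72 (95% interval -2.43 to -1.05). *Fasn* stood at 13.8, 5.003 and 8.47 CPM, a ratio of -1.46 (95% interval -2.29 to -0.67). The sterol genes called lower were *Srebf2* (-0.77), *Mvk* (-0.67), *Mvd* (-1.003), *Idi1* (-1.04), *Cyp51* (-0.74), *Sc5d* (-0.64) and *Stard4* (-0.88), and the interval for *Mvk* included 0. *Insig1* differed little here, at 42.8, 37.3 and 37.5 CPM and -0.20 (95% interval -0.55 to 0.16). *Acaca* and *Fads1* were called higher, at 0.61 and 0.67, with intervals that included 0, and with TMM scaling 1 member was called higher in place of 2, against 7.33% of genes. In KO HFD against WT HFD, where 25 members were tested, *Mvd* (0.92) and *Fasn* (0.76, an interval that included 0) were called higher and *Acaca* (-0.75) lower, against 3.67% of genes higher and 5.42% lower. Adipocyte markers summed to 50.4, 405 and 116 CPM in these cells, led by *Fabp4*, which macrophages also express, at 49.7, 403 and 115 CPM, while *Adipoq* had 0, 1 and 1 UMIs. The part of these markers in the result was not tested.

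B cell-like cells (383, 152 and 91 cells, at median depths of 8838, 6943.5 and 4578 UMIs) had 0 of 15 tested members called in WT HFD against WT CD, where 3.66% of genes were called lower and 16.0% higher. With TMM scaling 1 member was called lower, against 7.87% of genes, a share near the background. Their summed sterol enzymes stood at 253, 257 and 205 CPM, a ratio of 0.023 (95% interval -0.16 to 0.20) that turned to -0.27 with TMM scaling, since the median of all genes was 0.26 in this class. *Scd1* was their most abundant member, at 102, 149 and 171 CPM, above FAP-like cells in every library, and its ratio was 0.54, or 0.25 with TMM scaling. *Fads2* had 0 UMIs in all 3 libraries of this class, which with a floor of 3 counts per library allows up to 0.734, 2.39 and 4.88 CPM, beside 29.1 CPM in FAP-like cells of WT CD. In KO HFD against WT HFD 6 members were tested and 2 were called lower, *Srebf2* at -0.78 (95% interval -1.68 to 0.046) and *Acly* at -0.62 (95% interval -1.60 to 0.27), against 11.2% of genes called lower and 3.32% higher. With TMM scaling, where 8.23% of genes were called lower, *Srebf2* was still called lower and *Acly* was no longer past 1.5-fold.

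Blood endothelial-like cells (296, 296 and 244 cells) had 0 of 7 tested members called between the WT libraries, against 3.8% of genes lower and 5.02% higher. Sterol enzymes summed to 188, 218 and 213 CPM, a ratio of 0.21 (95% interval -0.055 to 0.48), and the difference from FAP-like cells was not tested. *Insig2* was called higher in KO HFD than in WT HFD, at 0.73 (95% interval -0.0076 to 1.48), with 3.94% of genes called higher and 5.18% lower. *Stard4* was more abundant here than in FAP-like cells, at 49.7, 36.3 and 41.2 CPM. In lymphatic-like cells (37, 71 and 42 cells) the summed sterol enzymes were highest in WT HFD, at 368, 528 and 394 CPM, a ratio of 0.52 (95% interval 0.14 to 0.92), though *Scd2* was the sole member with enough UMIs to be tested by itself, at 94.3, 90.6 and 77.8 CPM, and was not called (3.41% of genes lower and 13.7% higher between the WT libraries, 11.1% and 4.71% between the HFD libraries). Mesothelial-like cells (32, 77 and 44 cells) had 6 members tested. *Scd2* was called lower at -0.75 (95% interval -1.40 to -0.077), against 4.84% of genes lower and 9.4% higher, and none was called between the HFD libraries, against 6.77% and 5.23%. *Fads2* stood at 77.4, 66.0 and 50.2 CPM there, the highest of the 9 classes. In Schwann-like cells the sum was -0.83 (95% interval -1.24 to -0.43) between the WT libraries and 0.78 (95% interval 0.39 to 1.17) between the HFD libraries, and *Scd2*, tested alone, was called lower on the HFD at -0.66 (95% interval -1.13 to -0.19), against 7.2% of genes lower and 9.69% higher. Between the HFD libraries *Scd2* was not called in these cells, against 6.52% lower and 6.26% higher. T or NK cell-like cells (45, 24 and 22 cells) had no member with enough UMIs.

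**Figure D5:**
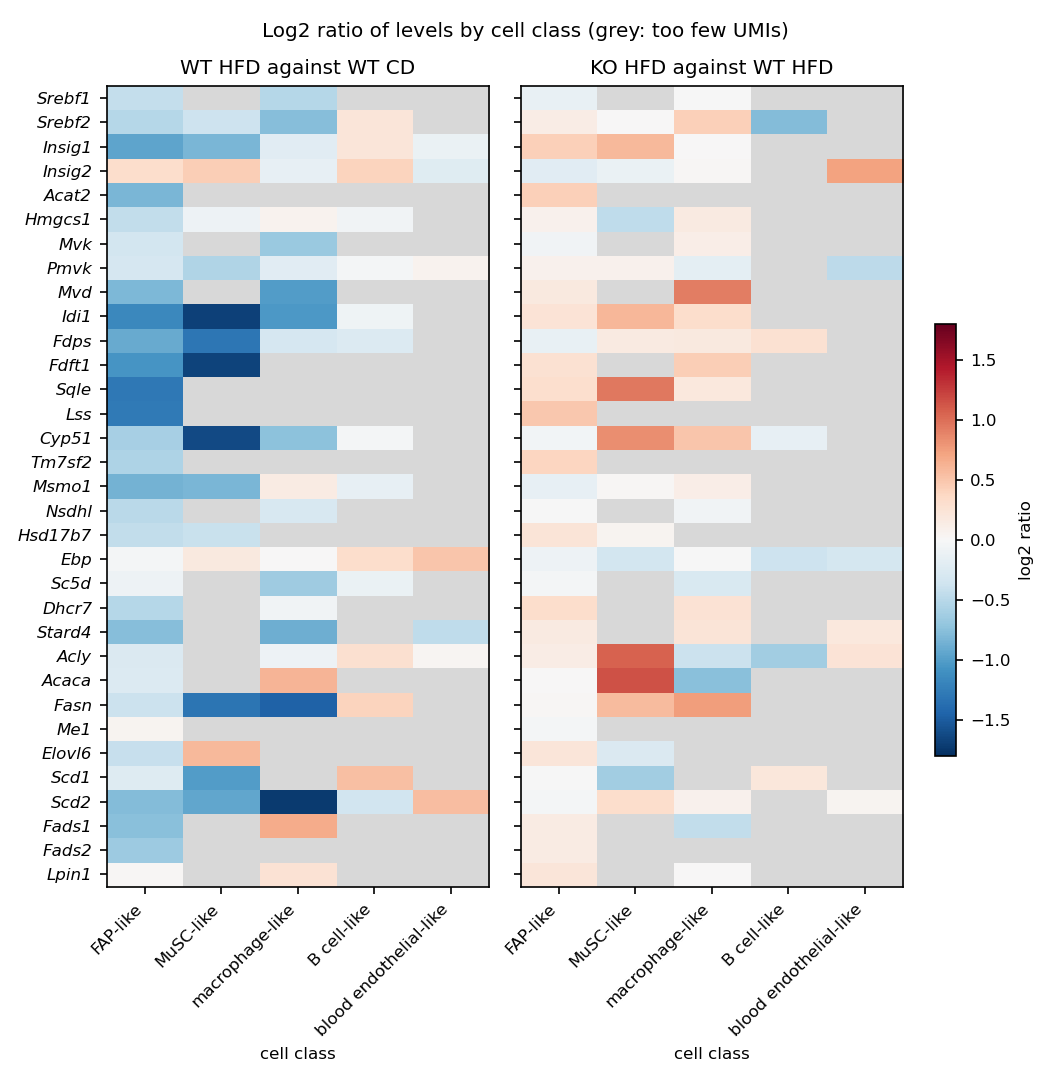
Log2 ratio of levels (colour scale) for each member in 5 cell classes, WT HFD against WT CD (left) and KO HFD against WT HFD (right), with grey for members under 50 UMIs in both libraries together. *Idi1* and *Cyp51* are lower in WT HFD in FAP-like, MuSC-like and macrophage-like cells, and fewer cells of the grid are tested in B cell-like and blood endothelial-like cells.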

How the data were processed

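The authors deposited, for each of the 3 libraries, a matrix of UMI counts per gene and cell, made from 10x 3′ v3.1 reads with Cell Ranger 6.1.1 (submitters' processing notes) on GRCm38. Counts were used as deposited, and the deposited barcodes equal the cell numbers that the study states. Cells were assigned to a class when at least 40% of its markers were detected, with a lead of 15 percentage points over the next class. FAP-like subsets were assigned in the same way. Class names were rebuilt here, so differences from the study's annotation are possible. Classes under 100000 UMIs in a library were not described. UMIs were summed per class and library, scaled to CPM, and compared by ratio, with exact 95% Poisson or conditional binomial intervals. The cutoff of 1.5-fold is that of the study's methods, with at least 50 UMIs in both libraries together. The calling step was checked on simulated data. Doublets were left in, and Scrublet marked 1.26% of WT CD, 1.09% of WT HFD and 1.33% of KO HFD cells. Cells of each library came from 2 pooled mice, isolated on the same day.

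Values in every library were planned for members past 1.5-fold in FAP-like cells, the regulators and the 5 most abundant members. In other classes, members past 1.5-fold were named. *Scap*, *Mbtps1*, *Mbtps2*, *Dhcr7*, *Nsdhl* and *Hsd17b7* in FAP-like cells, *Insig1*, *Scd1* and *Scd2* within subsets, and the class levels of *Insig1*, *Insig2*, *Scd1*, *Stard4* and *Fads2* were singled out after their values were seen. Members and lists were chosen with earlier results of these data known. For 2 genes of the surrounding lists results are not reported here, and no counts are given for those lists. Alternatives were edgeR TMM scaling, no UMI minimum, classes from Leiden clustering (26 clusters, of which 24 were named), removal of Scrublet doublets, a cell filter (500 genes, 10% mitochondrial UMIs), every cell weighing alike, thinning to 3000 UMIs, and subsets weighted alike. The last gives the small *Fmod* *Sfrp2* *Tnmd* subset (71 cells and 584747 UMIs in WT HFD) the weight of the larger ones. Ratios of low members under it therefore carry more counting error. Tools were Python 3.11.15, scipy 1.17.1, pandas 2.3.3, scanpy 1.11.5, leidenalg 0.10.2, R 4.3.3 and edgeR 4.0.16. Gene positions are those of GENCODE on GRCm38.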

Additional observations from a re-analysis of the deposited data

Results flagged for a closer look

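Some members differed in opposite directions in 2 cell classes under the same comparison, and the difference between the classes was not tested in any of these cases. *Fads1* in WT HFD against WT CD stood at 0.67 (95% interval -0.03 to 1.42) in macrophage-like cells, on 24 and 61 UMIs, and at -0.75 (95% interval -0.90 to -0.60) in FAP-like cells. *Acly* in KO HFD against WT HFD stood at 1.07 (95% interval 0.23 to 1.99) in MuSC-like cells and at -0.62 (95% interval -1.60 to 0.27) in B cell-like cells, where it was within 1.5-fold with TMM scaling. *Acaca* in the same comparison stood at 1.14 (95% interval 0.21 to 2.19) in MuSC-like cells and at -0.75 (95% interval -1.34 to -0.16) in macrophage-like cells. Each value compares 1 library with 1 library.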

How the results depend on the processing

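In FAP-like cells, WT HFD against WT CD kept the direction of the summed sterol and fatty acid enzymes under every alternative run, and 13 to 19 members were called lower in place of 14. With TMM scaling 17 members were lower, against 3.72% of all tested genes, and the summed ratios were -0.60 for sterol enzymes and -0.54 for fatty acid enzymes. For KO HFD against WT HFD, 2 members were past 1.5-fold with the subsets weighted alike, and both summed ratios were then 0.10, while the other alternatives called 0 members. Among the alternatives, the share of all tested genes called was taken with TMM scaling alone. Member counts under the others have no such share beside them, so a larger count there is not a stronger result. Of 926 values of single members under alternatives, 898 moved by less than their counting interval and 28 moved by more. The cause of these differences was not tested. Ratios near 0 could change sign. In FAP-like cells, TMM scaling took the WT HFD against WT CD median of all genes from 0.078 to 0.0037. *Me1* (0.047) and *Lpin1* (0.016) were then below 0. *Dhcr7* (-0.59 with TMM scaling, -0.72 thinned and -0.80 with subsets weighted alike) and *Tm7sf2* (-0.62 to -1.02) passed 1.5-fold under several alternatives. *Srebf2* passed it with TMM scaling (-0.59) and with subsets weighted alike (-0.75), *Mvk* with subsets weighted alike (-0.59), and *Elovl6* (-0.88), *Hmgcs1* (-0.64) and *Nsdhl* (-0.59) when thinned. No paired analysis was possible because each group is 1 library, and for the same reason no replicate could be left out. Depth limits the low members, such as *Lss* and *Tm7sf2*, and most members outside FAP-like, macrophage-like and MuSC-like cells. Intervals cover counting error and not the spread between mice, which these libraries cannot give.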

Other observations

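Per cell, with every cell thinned to 3000 UMIs, MuSC-like cells held a mean of 1.39 sterol enzyme UMIs in WT CD, 0.824 in WT HFD and 0.844 in KO HFD, and macrophage-like cells 0.935, 0.742 and 0.796. B cell-like cells differed less, at 0.820, 0.829 and 0.707. Thinning left out 45, 5 and 8 MuSC-like cells, most of them in WT CD, at median depths of 4554, 5467 and 5783.5 UMIs. MuSC-like cells with 5 or more such UMIs made up 7.69% in WT CD, 1.498% in WT HFD and 2.64% in KO HFD, so the cells richest in sterol enzyme transcripts were sparser in the HFD libraries, as in FAP-like cells. Blood endothelial-like cells had no cell with 5 or more, out of 170, 189 and 137 thinned cells.

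*Abca1*, which encodes a cholesterol efflux transporter that sterol-sensing LXR receptors control, had the highest WT HFD to WT CD ratio of the 16 sterol efflux, storage and uptake genes in FAP-like cells. It stood at 32.97 CPM in WT CD, 44.9 CPM in WT HFD and 43.8 CPM in KO HFD, a ratio of 0.45 (95% interval 0.30 to 0.59) that did not reach 1.5-fold. An interval wholly above 0 was found for 25.1% of all tested genes. Of the 16 listed genes 8 were below 0, and the list median was -0.021. *Abca1* was singled out after its values were seen.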
